A study of Rattus norvegicus with 11 samples.

Results

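The 5 miRNAs described here, rno-miR-150, rno-miR-142-3p, rno-miR-142-5p, rno-miR-223 and rno-miR-342-3p (rno, rat, is left off from here on), are known mainly from blood cells and were chosen by name from the 687 miRNA names that the arrays of this series carry. They were proposed with earlier results of these arrays in view, namely the higher miR-150 signal in HFD samples and the miR-142-3p signal of 1 HFD sample. Their levels and differences are therefore given as a description, and no test is claimed on them. All 5 names lie among the 340 present on both array designs, each with 2 probes of the same names on both designs.

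The samples were pancreatic islets, the hormone-secreting cell clusters of the pancreas, from 13-week-old female Sprague Dawley rats that differed in what their fathers had eaten. HFD daughters had fathers on pellets with 43% fat, and Control daughters had fathers on chow with 9% fat. The fathers were mated at 15 weeks with chow-fed females, and all daughters were weaned onto chow at 3 weeks, so the daughters themselves ate the same diet. The first array design held 4 HFD arrays (603, 607, 644 and 653) and 4 Control arrays (602, 613, 615 and 639), and the second held 1 HFD array (640) and 2 Control arrays (635 and 652). The labels do not state which daughters shared a sire or dam, so p-values cover only the spread between these samples. Every daughter, HFD and Control, also went through a glucose test at 6 weeks, an insulin test at 11 weeks and another glucose test at 12 weeks. An islet preparation holds whatever blood, vessel and exocrine cells came along with the endocrine cells.

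miRNAs are short RNAs that bind target mRNAs, chiefly through the seed at bases 2 to 8 of their 5′ end, and lower the targets' output. miR-150 is abundant in mature lymphocytes and is known for holding down the transcription factor Myb. miR-142, cut from 1 hairpin into a 5p and a 3p strand, is made throughout the blood-forming lineages and little elsewhere. miR-223 belongs to neutrophils, monocytes and platelets, where it restrains granulocyte production. miR-342-3p is present in B cells and other leukocytes but also in nervous and endocrine tissue, so it is the least blood-restricted of the group.

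The mature sequences are shown because the array names alone do not say which bases a probe reads for. RefSeq (build GRCr8) supplied a mature sequence for 4 of the 5 members, written 5′ to 3′ with the seed in capitals. The array's miR-223 is the older name of the 3p strand.
miR-142-3p: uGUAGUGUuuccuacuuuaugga
miR-142-5p: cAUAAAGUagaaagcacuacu
miR-223: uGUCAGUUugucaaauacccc
miR-342-3p: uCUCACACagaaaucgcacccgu
The 4 seeds differ from one another, and each was found in 1 of the 724 mature rat sequences searched, its own. No other rat miRNA in that table therefore shares a seed with these members.

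The 5 members come from 4 separate loci of GRCr8. Mir150 lies at chr1:104741487-104741571. Mir142 lies at chr10:73055104-73055190 within the span of Tspoap1, and miR-142-5p (chr10:73055119-73055139) and miR-142-3p (chr10:73055155-73055177) are separated by 15 bases on the plus strand. Mir223 lies at chrX:65151383-65151492 within the span of the noncoding gene LOC120099372, and its mature 3p strand at chrX:65151450-65151470. Mir342 lies at chr6:133329655-133329753 within the span of Evl, which encodes an actin regulator, with its 3p strand at chr6:133329715-133329737. The gene table gives gene spans and not exons, so whether these places are exonic or intronic is not stated here.

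Detection differed widely between the members. The scanner software called miR-342-3p detected on all 11 arrays, miR-150 and miR-223 on 7 each, miR-142-3p on 4 and miR-142-5p on 0. miR-150 was detected on 4 of 5 HFD and 3 of 6 Control arrays, miR-142-3p on 2 HFD and 2 Control arrays, and miR-223 on 3 HFD and 4 Control arrays. The 3 members detected on at least 5 arrays entered the fit over 152 miRNAs, and the other 2 are given by array.

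The arrays differed in quality in ways that bear on dim miRNAs. They detected 105 to 157 shared miRNAs on the first design's HFD arrays and 138 to 153 on its Control arrays, and 184 on the second design's HFD array against 130 and 163 on its Control arrays. HFD 653 stood apart, with the fewest detected and a spread of its negative control spots of 38.2, where the remaining 7 first-design arrays had 6.38 to 7.53. On the second design that spread was 27.4 on HFD 640, against 26.3 on Control 635 and 25.0 on Control 652. Signals below are the background-subtracted intensity summed over a miRNA's probes and scaled to a common 75th percentile over 85 miRNAs detected on all arrays. On the second design the scaling factor was 0.999 for Control 635, against 0.431 for Control 652 and 0.475 for HFD 640. Dim readings of Control 635, noise included, were thus multiplied by more than those of the others. In log2 values a scaled signal under 10.3 was set to that floor. The number of arrays limits the precision throughout.

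miR-150 read higher in the HFD islets of both array designs. On the first design its scaled signal was 209 on HFD 603, 25.1 on HFD 607, 13.4 on HFD 644 and 71.2 on HFD 653, against 12.5, 10.6, 11.9 and 9.48 on Control 602, 613, 615 and 639. On the second design it was 24.2 on HFD 640, against 15.3 on Control 635 and 13.9 on Control 652. Within each design every HFD array lay above every Control array, by a wide gap for HFD 603 and by little for HFD 644. That held for the sum of the 2 probes and not for the brighter, second probe alone, which read 13.5 on HFD 644 and 14.6 on Control 602. The first probe read -0.133 and -2.04 on those arrays, with no spot well above background on either. Separation of the summed signal in both designs was met by 1 of the 152 tested miRNAs, a background of 0.658%. Since miR-150 was chosen with this contrast known, nothing is read from it. HFD 653, the next highest array after HFD 603, was not called detected for miR-150, so no ratio is given between those arrays.

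The log2 level of miR-150 on the first design was 5.56 ± 1.74 in HFD and 3.50 ± 0.14 in Control (SD, n = 4 each). The SD of the HFD arrays was thus far wider than that of the Control arrays, which lay at or just above the floor. The fitted difference over all 11 arrays with array design as a block was 1.73 ± 0.61 (SE), with a 95% interval from 0.365 to 3.098 on the log2 scale. Since miR-150 was detected on 3 of 6 Control arrays and Control 639 was set to the floor, this value depends on the floor and is not given as a fold, and it was 1.15 when the floor was raised to the 5th percentile of detected readings. limma's adjusted p was 0.987, and of the 3 members fitted 0 were called, beside a background of 0 of 152 miRNAs (0%). At an unadjusted p under 0.05 limma had 3 of the 152. The value leans on few arrays: it was 1.18 without HFD 603, 1.55 without HFD 653 and 0.71 without both. With no scaling between arrays, miR-150 was the 1 miRNA that limma called, at a difference of 1.79 and an adjusted p of 0.00062. limma draws each miRNA's spread toward that of all miRNAs, and there it replaced the standard error of miR-150 itself, 0.56, by 0.37, with a prior weight of 97.2 degrees of freedom. With scaling it replaced 0.69 by 0.61, with a prior weight of 2.11. In these whole-islet samples, a change in the number of cells that hold a miRNA and a change in its amount per cell cannot be told apart.

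**Figure D1:**
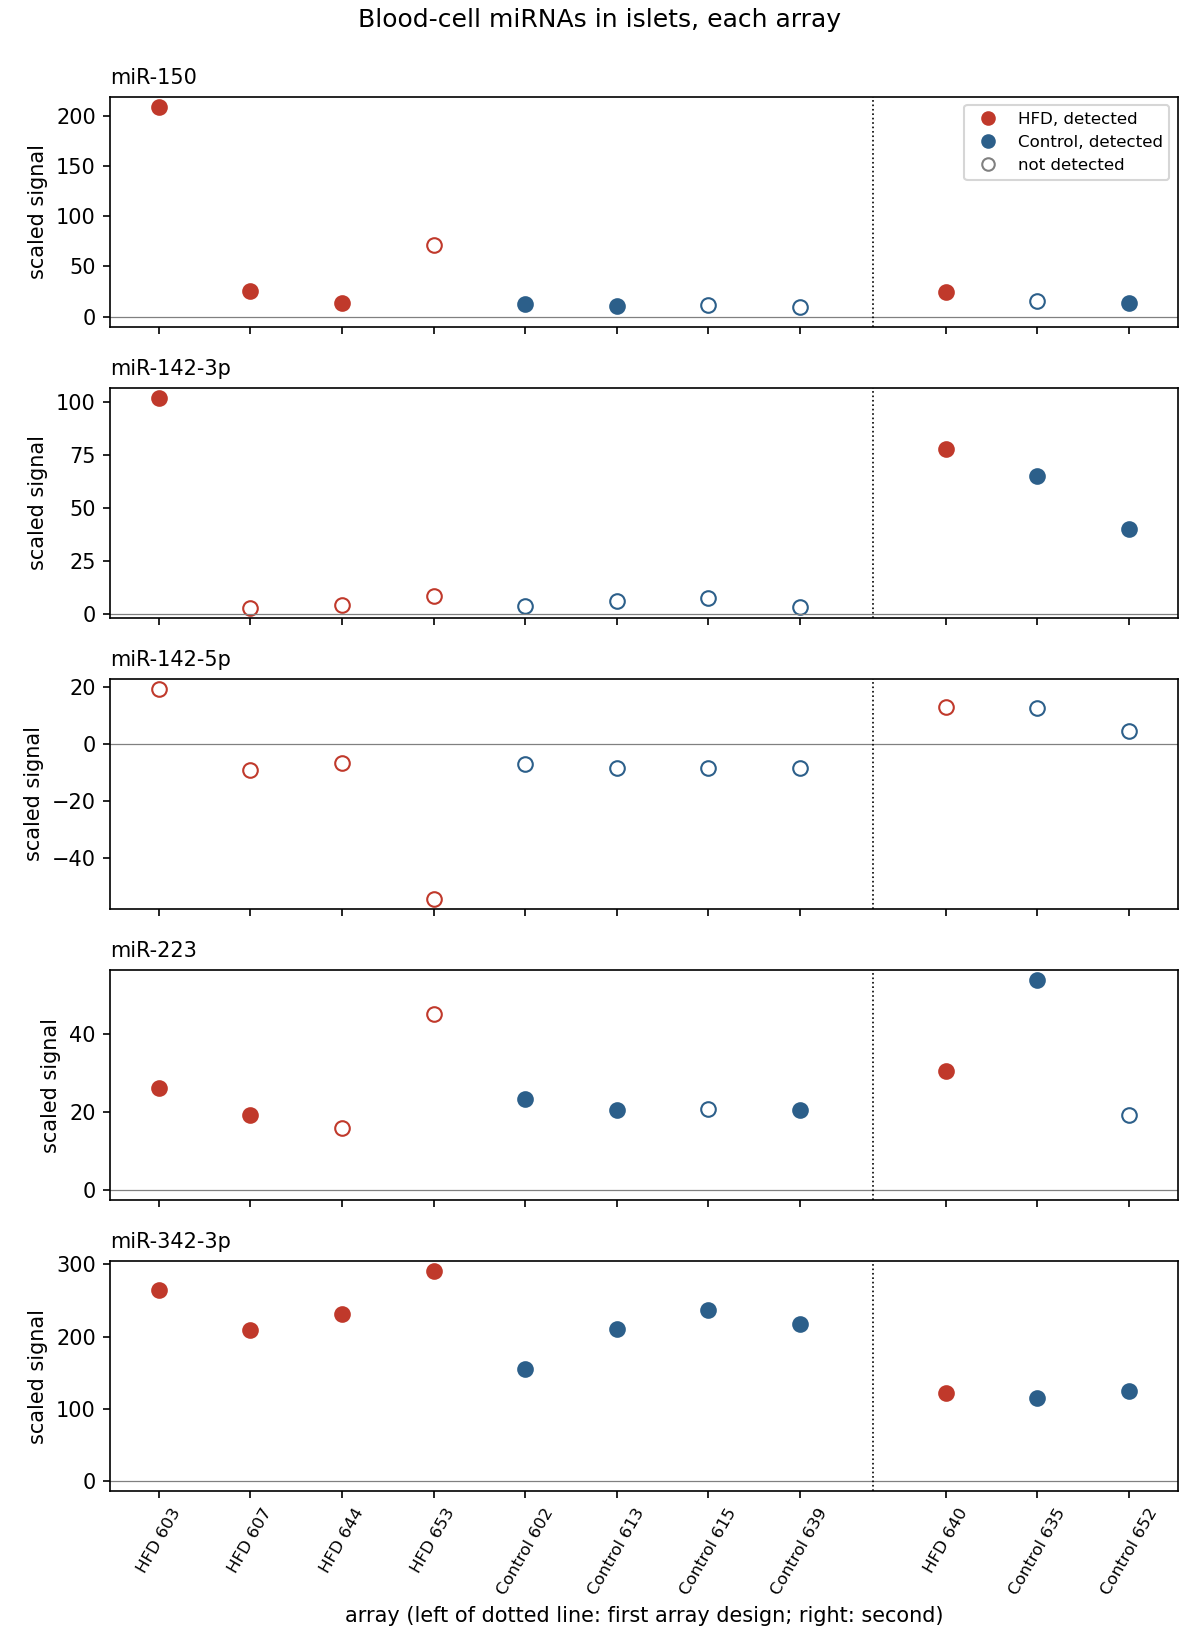
Scaled signal (y axis, intensity units after scaling) of each member on each array (x axis), HFD arrays left of Control arrays within each design, with the first design left of the dotted line. Filled points were called detected and open points were not; HFD 603 reads 209 for miR-150 and 102 for miR-142-3p, while miR-223 and miR-342-3p show no such point on that array.

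The 2 probes of miR-150 carried unequal parts of this signal. The second probe read 190 ± 11.1 on HFD 603 (SD over 9 spots), with all 10 of its spots well above background. On the other first-design HFD arrays that probe read 25.2 ± 4.40 on HFD 607, 13.5 ± 2.06 on HFD 644 and 56.3 ± 25.7 on HFD 653 (SD over 10 spots each), against means of 11.3 to 14.6 on the 4 Control arrays. HFD 607 also had 10 of 10 spots of that probe well above background, whereas HFD 653 had 1 of 10 and the widest scatter between spots. The first probe read 18.5 ± 7.22 on HFD 603 and 14.9 ± 7.48 on HFD 653 (SD over 10 and 9 spots), and lay between -0.143 and -0.133 on HFD 607 and HFD 644, against -2.34 to -0.994 on the Control arrays. Both probes were thus highest on HFD 603 and next highest on HFD 653. Taken alone the first probe gave a fitted log2 difference of 0.26 and the second 1.48, a comparison added after the values were seen. Spots of 1 probe on 1 array share the RNA, so their scatter is technical.

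On the first design miR-142-3p was detected on 1 array. Its scaled signal was 102 on HFD 603, 3.09 on HFD 607, 4.31 on HFD 644 and 8.54 on HFD 653, against 3.66, 6.15, 7.81 and 3.25 on Control 602, 613, 615 and 639. HFD 603 stood above the 7 others, which lay under the floor and overlapped between the groups. It was the 1 miRNA of 340 that the software detected on HFD 603 and on no other array of that design (0.294%), which is how it came to be chosen. Both probes carried the signal, with 73.1 ± 16.5 and 28.9 ± 7.16 on HFD 603 (SD over 10 spots each) and 10 and 8 of 10 spots well above background. No spot of either probe was well above background on any of the other 7 arrays. Since the HFD mean lay below the level at which Control probes count as measured, no bound on a group fold is given.

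On the second design miR-142-3p was detected on all 3 arrays, at 78.2 on HFD 640, against 65.3 on Control 635 and 40.2 on Control 652. Its 2 probes had 10 and 10 of 10 spots well above background on HFD 640. They had 3 and 1 on Control 635, and 9 and 3 on Control 652, so few spots stood behind the Control 635 value. Of the 340 shared miRNAs, 11 (3.24%) had this pattern of detection on all second-design arrays and at most 1 first-design array. Levels are not set across designs. miR-142-3p was not tested, and its fitted log2 difference, 0.77 with values under the floor included, was 0.17 without HFD 603.

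**Figure D2:**
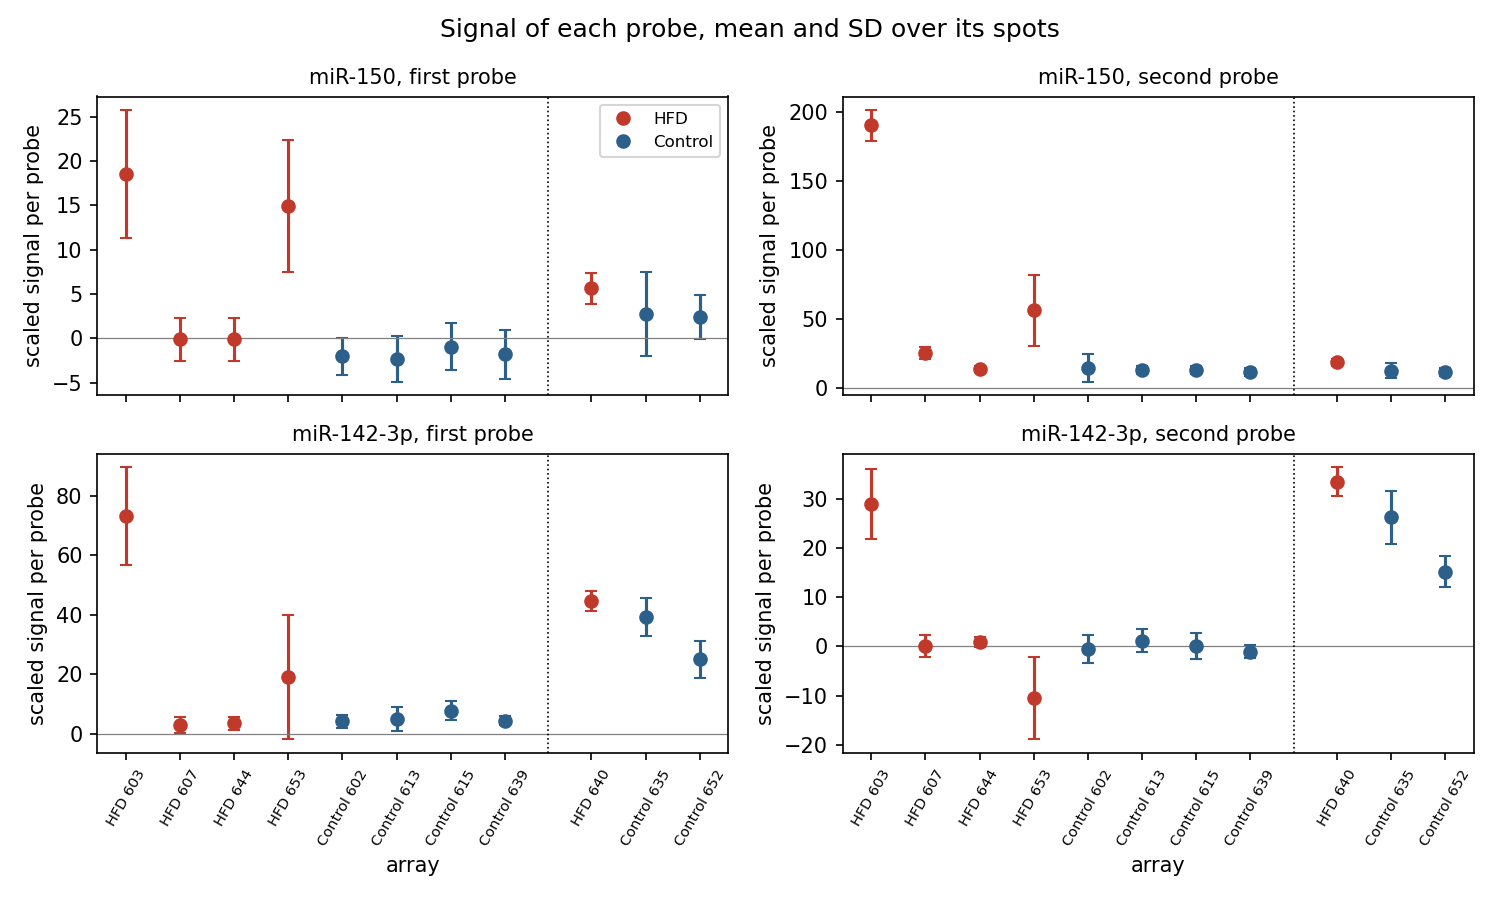
Scaled signal per probe (y axis) of the 2 probes of miR-150 (top) and of miR-142-3p (bottom) on each array (x axis). Points are means and bars SDs over the spots of a probe without an outlier flag, at most 10; the second probe of miR-150 reads 190 ± 11.1 on HFD 603, and HFD 653 shows wide bars in each panel.

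miR-142-5p, the other strand of the same hairpin, was not called detected on any of the 11 arrays. Its scaled signal was 19.1 on HFD 603, -9.42 on HFD 607, -6.71 on HFD 644 and -54.5 on HFD 653, against -7.31, -8.56, -8.60 and -8.65 on Control 602, 613, 615 and 639. HFD 603 was the 1 first-design array above 0, and each of its spots read above 0, from 5.43 for the first probe and from 3.06 for the second, yet 0 of them were well above background. On the second design the signal was 12.9 on HFD 640, against 12.5 on Control 635 and 4.53 on Control 652. These readings are below detection and give no fold.

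miR-223, the myeloid member, did not single out HFD 603. Its scaled signal was 26.2 on HFD 603, 19.3 on HFD 607, 15.8 on HFD 644 and 45.2 on HFD 653, against 23.2, 20.6, 20.6 and 20.4 on Control 602, 613, 615 and 639. The groups overlapped, and the highest reading was on HFD 653, where miR-223 was not called detected. Its spots there scattered by 11.6 and 12.0 (SD over 9 and 10 spots) around probe means of 19.2 and 26.0. On the second design it was 30.5 on HFD 640, which lay between 53.7 on Control 635 and 19.2 on Control 652. The 2 probes of miR-223 had 5 and 4 of 10 spots well above background on HFD 640, and 0 of 10 on either Control array. The fitted log2 difference was 0.14 ± 0.31 (SE), with a 95% interval from 0.683-fold to 1.78-fold (limma adjusted p = 0.987). The sign did not hold under other settings: it was -0.079 without HFD 653, -0.21 without HFD 603 and HFD 653, and -0.32 with quantile normalization.

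miR-342-3p, the 1 member detected on every array, did not separate the groups on either design. Its scaled signal was 264 on HFD 603, 209 on HFD 607, 231 on HFD 644 and 290.1 on HFD 653, against 154 on Control 602, 211 on Control 613, 237 on Control 615 and 217 on Control 639. The ranges overlapped, with the lowest reading on Control 602 and the highest on HFD 653. On the second design it was 122 on HFD 640, which lay between 115 on Control 635 and 125 on Control 652. The log2 level on the first design was 7.94 ± 0.21 in HFD and 7.66 ± 0.27 in Control (SD, n = 4 each). The fitted difference was 0.22 ± 0.14 (SE), a fold of 1.17 with a 95% interval from 0.942 to 1.44 (limma adjusted p = 0.987), and it was 0.12 without Control 602.

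Control 602 and HFD 653 were also the arrays where the miR-342-3p spots were least even. Its second probe read 109 ± 65.2 on Control 602 and 190 ± 64.1 on HFD 653 (SD over 10 spots each), whereas on the other first-design arrays that SD ran from 6.59 to 31.0. Control 602 held the lowest first-design value for 57 of the 152 tested miRNAs (37.5%) and the highest for 16. HFD 653 held the highest for 37 (24.3%) and the lowest for 32, so it was extreme in both directions. Control 615 held the highest for 35, nearly as many as HFD 653. The part of this unevenness in the group difference was not tested.

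The deposited log2 table of the second design holds 13.98 for miR-342-3p on HFD 640, whereas that array's own file gives a total signal of 160.1, or 7.32 on the log2 scale. Over the shared names, 2 cells of that array depart by more than 0.01 from log2 of the array file, as do 3 of Control 635 and 2 of Control 652, and this cell is the 1 among the members. With the deposited tables the fitted difference of miR-342-3p was 1.91, against 0.22 from the array files. The first design's table holds log2 of the total signal plus 50, which compresses dim miRNAs, and there miR-150 read 7.08, 6.04, 5.88 and 6.33 on HFD 603, 607, 644 and 653, against 5.79 to 5.82 on the Control arrays. Apart from the departing cells, the second design's table holds log2 of the signal with no 50 added, and no value where a miRNA was not detected. The fitted miR-150 difference from those tables was 0.54. That fit lacks Control 635, which has no miR-150 value there, and joins tables on unlike scales.

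No difference between the 2 array designs in the HFD minus Control value was detected for the tested members. limma's interaction of diet and design was -1.34 ± 1.43 for miR-150, -0.28 ± 0.75 for miR-223 and -0.26 ± 0.33 for miR-342-3p (SE), each with an adjusted p of 0.996, and over all 152 miRNAs 0 were called, with 1 at an unadjusted p under 0.05. That test takes HFD 640, alone in its group, to vary as much as arrays of the first design.

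Other blood-cell miRNAs were looked at beside the members. Of a list of 9 further leukocyte names, 5 were on both designs and 3 were tested, with 1 above 0, 2 below and 0 called, and a median log2 difference of -0.082 against 0.066 over all 152. miR-181a, which tunes T-cell receptor signalling, differed by 0.70 ± 0.38 and miR-146b, a brake on inflammatory signalling, by -0.11 ± 0.18 (SE). miR-181a read 77.7 on HFD 603, 39.8 on HFD 607, 19.8 on HFD 644 and 76.9 on HFD 653, against 36.0, 33.5, 28.3 and 15.0 on Control 602, 613, 615 and 639. It was thus highest on the same arrays as miR-150, HFD 603 and HFD 653, without separating the groups, and was not called detected on HFD 653. The other tested names were not highest on both arrays. miR-146b read 24.8 on HFD 603 and 16.3 on HFD 653, against 27.6 to 32.7 on the first design's Control arrays. miR-146a read 43.1 on HFD 603 but -5.52 on HFD 653, against 22.2 to 31.6 on those Control arrays. Neither was called detected on HFD 653. The list's summed signal ran from 76.6 to 555.1 on the first design's HFD arrays, against 66.7 to 102.8 on its Control arrays, with the top value on HFD 653, where 1 of its 5 members on the arrays, miR-181b at 461.8, was detected.

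The red blood cell list gave no signal on the first design. Of its 3 names 2 were on both designs and 0 were tested, and its summed signal ran from 0 to 8.14 on HFD arrays, against 0 to 5.71 on Control arrays. miR-451, the most abundant miRNA of red cells, read -2.02 on HFD 603 and was not detected on any first-design array. On the second design miR-451 was detected on all 3 arrays, at 26.4 on HFD 640, against 50.8 on Control 635 and 21.6 on Control 652.

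Some markers of other non-endocrine cells, and not others, were highest on HFD 603 among first-design arrays. The endothelial and platelet list summed to 793.5 on HFD 603 within 438.3 to 793.5 on HFD arrays, against 471.3 to 616.6 on Control arrays of the first design. miR-126 and miR-10a-5p carried that sum, at 613 and 180.6 on HFD 603, whereas miR-126*, not detected on any first-design array, read -0.626 there, against 0.622 to 1.18 on the Control arrays. Its tested members were miR-126, the main endothelial miRNA, at 0.10 ± 0.15 and miR-10a-5p at 0.26 ± 0.21 (SE), both above 0 with 0 called. The mesenchymal list summed to 271.6 to 594.6 on HFD arrays with the top on HFD 603, against 263.5 to 460.3 on Control arrays. That sum was mostly miR-143, at 521.8 on HFD 603, while miR-214 (19.6), miR-199a-3p (49.2), miR-199a-5p (4.02) and miR-145 (-3.62) on that array did not exceed the highest Control array. It had 5 names on both designs and 3 tested, 2 above 0 and 1 below with 0 called, with 0.17 ± 0.30 for miR-199a-3p and 0.13 ± 0.25 for miR-143 (SE), both of fibroblasts or smooth muscle.

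The acinar list, of the enzyme-secreting pancreas, summed to 106.0 to 665.9 on the first design's HFD arrays, against 21.0 to 622.6 on its Control arrays. miR-216a, its 1 tested member, read 665.9 on HFD 603 and nearly as high, 617.7, on Control 602. miR-217, not tested, read -13.2 on HFD 603, where it was not detected and counted as 0 in the sum. On Control 602 miR-217 was detected, at 4.91. The difference of miR-216a was 0.68 ± 0.84 (SE) and was not called. The islet endocrine list, miR-375, miR-7a and miR-7b, was detected in full on every array and summed to 10925 to 13436 on the first design's HFD arrays, against 10396 to 14743 on its Control arrays. Of those 3, 2 were above 0 and 1 below with 0 called, with 0.064 ± 0.096 for miR-7b and 0.050 ± 0.11 for miR-7a (SE). The part of any of these cell types in the member values was not tested.

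**Figure D3:**
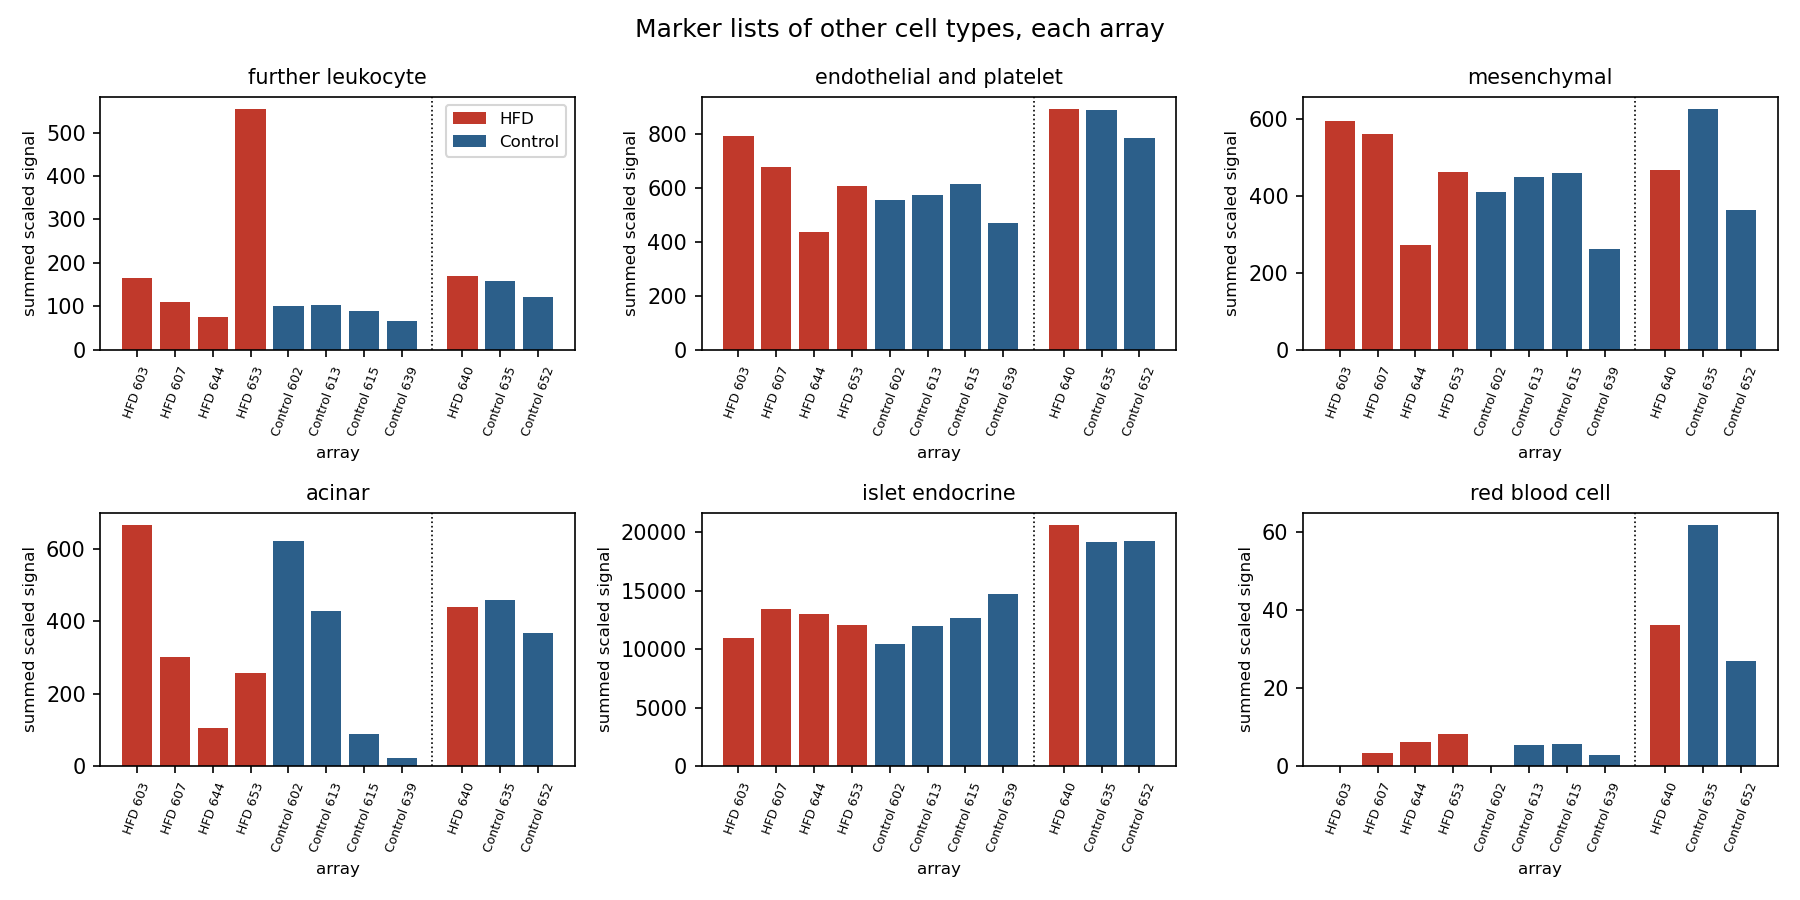
Summed scaled signal (y axis, negative values counted as 0) of each list of marker miRNAs on each array (x axis), HFD arrays left of Control arrays within each design, with the first design left of the dotted line. HFD 603 has the highest first-design bar for the endothelial and platelet list at 793.5 and for the mesenchymal list at 594.6, and 0 for the red blood cell list.

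The miRNAs whose pattern was most like that of a member were found over the 8 first-design arrays by Pearson's r of log2 signal, as a description across arrays that share a slide. For miR-150 these were miR-466b (r = 0.889), miR-10a-5p (0.878) and miR-10b (0.851). Without HFD 603 the r of those 3 with miR-150 was 0.882, 0.851 and 0.731 over 7 arrays. HFD 603 and HFD 653 read 180.6 and 177.8 for miR-10a-5p, above the other arrays, as for miR-150.

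For miR-223 the closest were miR-345-5p (r = 0.948), miR-296* (0.937) and miR-327 (0.929), and without HFD 653 these fell to 0.735, 0.752 and 0.698. For miR-342-3p they were miR-652 (r = 0.790), miR-433 (0.790) and miR-329 (0.755), without HFD 653 they were 0.713, 0.706 and 0.609, and without HFD 603 they were 0.944, 0.934 and 0.948. Single arrays thus weighed on the likeness, HFD 653 for miR-223 and HFD 603 and HFD 653, in opposite directions, for miR-342-3p. The search ran over the 152 tested miRNAs, so miR-142-3p and miR-142-5p, not tested, could not appear in it. Among the 3 tested members, no member was among the 3 closest of another.

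The fitted differences of the 3 tested members depended unequally on processing. miR-150 stayed above 0 under each of its 30 alternatives, from 0.25 with the RMA-like summary to 2.13 without HFD 644. Its direction was known when it was chosen and the alternatives reuse the same arrays, so nothing is read from its constant sign. The share of all tested miRNAs that kept their sign was not computed. miR-342-3p was above 0 under 30 of 31 and miR-223 under 22 of 30.

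**Figure D4:**
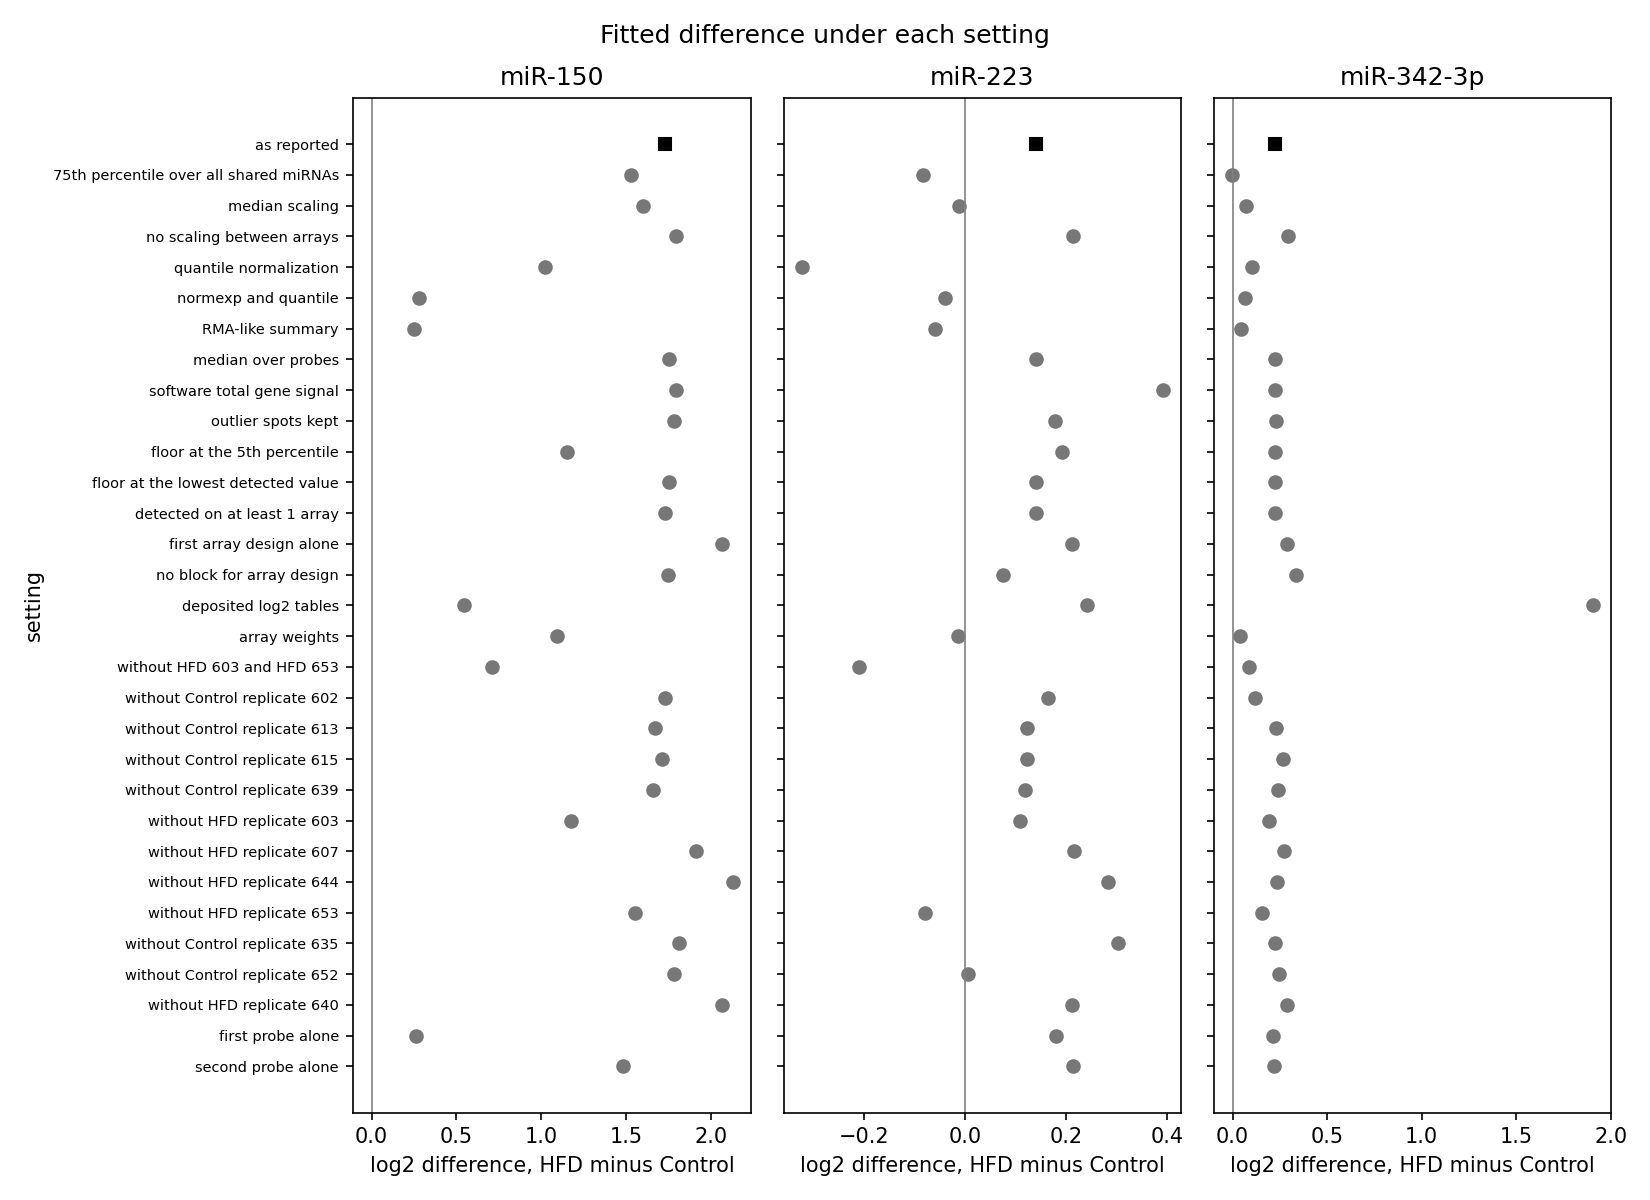
Fitted log2 difference, HFD minus Control (x axis), of miR-150, miR-223 and miR-342-3p under each setting (y axis), with the reported value as a square and alternatives as circles. miR-150 runs from 0.25 to 2.13, miR-223 lies on both sides of 0, and miR-342-3p departs to 1.91 with the deposited tables.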

How the data were processed

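Per the labels' protocols, 100 ng of islet total RNA from each rat went onto an Agilent miRNA array in a single Cy3 channel. Spot intensity was extracted, background-subtracted and spatially detrended within each array by Feature Extraction 10.5.1.1 (first design) and 10.7.3.1 (second), per the file headers, and is not normalised between arrays. The authors also deposited log2 tables, whose scale was found against the array files; neither is centred, and their column medians over shared names ran from 5.68 to 7.01. The submitters' processing notes name RMA and Partek; what each did is not given in the sources used here.

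Unflagged spots were averaged per probe and probes summed per miRNA. Arrays were scaled to a common 75th percentile over 85 miRNAs (those called detected on every array), floored at the 1st percentile of detected values (10.3) and log2-transformed. limma 3.58.1 in R 4.3.3 was fitted over 152 miRNAs detected on at least 5 arrays, HFD minus Control, 2-sided, with array design (one slide and scan each) as a block and Benjamini-Hochberg adjustment at 0.05. The fit was also run on simulated data with the same SD for every miRNA and no floor. Those settings differ from these data, so that run does not show how the fit treats dim or uneven miRNAs. The normexp alternatives used the median foreground signal, since the files read here have no mean signal column. Members, lists and alternatives were chosen with earlier results of these data known. The text names the 5 members and the 3 tested miRNAs most like each member detected on at least 3 first-design arrays. For each marker list it gives fitted differences for up to 2 miRNAs (smallest p). Further list names and strands of the members were named for their detection or array readings, with those values seen. Sequences and gene spans are RefSeq's, GRCr8. No column lacked a sample.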

Additional observations from a re-analysis of the deposited data

Results flagged for a closer look

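On the first array design, 8 groups of 4 arrays with any spread were checked for 1 array far from the rest, and 3 met Dixon's criterion; chance flags about 1 in 20 groups, but the members were chosen with the signal of HFD 603 known, so nothing is read from that count. That criterion divides an array's distance to its neighbour by the range of its group, which gave 1 for miR-142-3p in HFD and 1 for miR-142-5p in HFD, in both cases with HFD 603 high and the other 3 HFD arrays at the floor, which fixes the ratio at that value. It was 0.912 for miR-223 in Control, where Control 602 read 23.2 against 20.4 to 20.6 on the other 3. miR-142-3p lies outside the tested miRNAs, and its scaled signal of 102 on HFD 603 stood against 3.25 to 7.81 on the 4 Control arrays of that slide.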

How the results depend on the processing

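Over 29 alternatives limma called 0 miRNAs in 28 and 1 with no scaling between arrays, miR-150 at 1.79 with an adjusted p of 0.00062; its own standard error there was 0.56, and limma's moderated one 0.37. Leaving out each array in turn gave 0 calls throughout and differences of 1.18 to 2.13 for miR-150, -0.079 to 0.30 for miR-223, 0.12 to 0.29 for miR-342-3p and 0.17 to 0.97 for the untested miR-142-3p. miR-223 turned below 0 at -0.084 when each array's 75th percentile was taken over every shared miRNA, -0.012 with median scaling, -0.32 with quantile normalization, -0.040 with normexp, -0.060 with the RMA-like summary, -0.014 with array weights, -0.21 without HFD 603 and HFD 653 and -0.079 without HFD 653; the cause was not tested. miR-342-3p turned at -0.0031 with the first of these scalings, under which the median of all 152 was -0.15, against 0.066 as reported, -0.084 with median scaling and -0.085 with quantile normalization. miR-150 shrank to 0.28 with normexp and 0.25 with the RMA-like summary, both of which add an offset of 50 to dim signals. No paired analysis was possible because the groups share no replicate number. The dimness of miR-150 and miR-223 and the lack of detection of miR-142-5p limit what these arrays can show.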

Other observations

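The opposite strands of the members were also looked for. miR-150*, on the second design alone, was detected on all 3 of its arrays, with a scaled signal of 46.6 on HFD 640, which lay between 52.0 on Control 635 and 35.3 on Control 652. The software's own total signal, not scaled between arrays, was 61.1 on HFD 640, against 22.5 on Control 635 and 49.1 on Control 652. HFD 640 was thus highest on that measure, and its place among these arrays is not settled. miR-223*, on the same design, was not detected on any of the 3, with 2.63 on HFD 640, against -2.83 and -1.70 on Control 635 and 652. miR-342-5p, on both designs, was not detected on any of the 11 arrays, although miR-342-3p of the same hairpin was detected on all 11. On the first design every miR-342-5p reading was below 0, from -61.5 to -5.07 on HFD arrays, against -8.66 to -5.08 on Control arrays.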
